A study of Mus musculus with 6 samples.

Results

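The monocarboxylate transporters that carry lactate and related acids, their chaperones and the lactate receptor were followed by 8 genes. These genes were chosen by symbol from the 45777 genes of a mouse expression table, with earlier results of these data known. The members were the carriers Slc16a1 (MCT1), Slc16a3 (MCT4), Slc16a7 (MCT2), Slc16a6 (MCT7) and Slc16a9 (MCT9), the chaperones Bsg and Emb, and the receptor Hcar1. All 8 had at least 1 read in every sample and were therefore among the 22337 genes tested. RNA was sequenced from tdTomato-positive cells sorted from the brains of male Aldh1l1-CreERT2;tdTomato fl/fl mice, whose cells turn red under tamoxifen where the Aldh1l1 promoter is active. Both groups were given tamoxifen injections of 75 mg/kg on 5 consecutive days. At 8 weeks of age the mice received 1 injection of citrate buffer (vehicle, labelled normoglycemic) or of streptozotocin (STZ, 150 mg/kg, labelled hyperglycemic), which destroys the beta cells of the pancreas, and brains were taken 21 days later. Each sample was a pool of 3 mice, and there were 3 samples per group. The comparison asks whether expression of the carriers differed in astrocytes of mice made hyperglycemic.

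Monocarboxylate transporters move lactate, pyruvate and ketone bodies across membranes together with a proton, in the direction set by the gradients. In the lactate shuttle model of brain metabolism, astrocytes make lactate by glycolysis and release it through MCT1 and MCT4, and neurons take it up through MCT2. MCT1 and MCT4 need basigin, and MCT2 needs mainly embigin, to reach the cell surface. Lactate outside the cell can also act as a signal on the receptor encoded by Hcar1.

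The stretches before the start sites of Slc16a1 and Slc16a3 are shown because these are the carriers through which astrocytes are held to release lactate. Slc16a3 is also a known target of hypoxia-inducible factor, whose binding sites often hold ACGTG. Other forms of the site were not searched. Of the 8 members, 5 had an entry in the RefSeq promoter table used (GRCm38.p6). Both sequences are from the plus strand, 5′ to 3′, and capitals mark ACGTG on either strand.
Slc16a1, chr3:104638414-104638663: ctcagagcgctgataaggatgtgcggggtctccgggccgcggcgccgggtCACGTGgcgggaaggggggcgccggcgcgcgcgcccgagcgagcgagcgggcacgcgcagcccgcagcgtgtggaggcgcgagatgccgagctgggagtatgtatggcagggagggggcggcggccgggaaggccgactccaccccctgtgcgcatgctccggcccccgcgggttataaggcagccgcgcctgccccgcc
Slc16a3, chr11:120948817-120949052: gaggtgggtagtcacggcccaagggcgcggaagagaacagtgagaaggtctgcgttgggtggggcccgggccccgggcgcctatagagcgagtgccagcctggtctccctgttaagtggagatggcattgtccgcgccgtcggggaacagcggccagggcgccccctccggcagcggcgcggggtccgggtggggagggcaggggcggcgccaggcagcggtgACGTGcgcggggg
The Slc16a1 stretch held the palindrome CACGTG, which gives overlapping ACGTG matches on both strands, 200 and 199 bases before its start site. Of 32851 promoters, 16.6% held ACGTG and 6.02% held CACGTG within a window of 250 bases. The Slc16a3 stretch, which lies in an intron of a longer Slc16a3 transcript, held 1 ACGTG at 27 bases before its start site and no CACGTG. Within a window of 236 bases, 15.6% of promoters held ACGTG and 5.52% held CACGTG. Both stretches were rich in G and C, at 76.4% with 37 CpG dinucleotides for Slc16a1 and 73.3% with 25 for Slc16a3.

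Total counts were 52529048 to 58749115 per sample, so 3 reads corresponded to 0.0511 to 0.0571 CPM (counts scaled to library size). All levels below are in TPM, a unit the authors computed that divides by transcript length, so that values can be set side by side between genes. The astrocyte label was checked with 8 astrocyte markers, which summed to 12523 to 15213 TPM in vehicle and 12354 to 13829 TPM in STZ samples, with Aldh1l1 at a mean of 312 TPM. Markers of other cells were also present, and no marker of the 7 lists was at 0 in any sample. The 6 choroid plexus markers summed to 10515, 28445 and 29667 TPM in vehicle replicates 1, 2 and 3, and to 19626, 15849 and 26766 TPM in STZ replicates 1, 2 and 3. Their most abundant gene, Ttr, had a mean of 21056 TPM and exceeded Aldoc, the most abundant astrocyte marker, at 5304 TPM. The 10 endothelial markers summed to 69.8, 96.2 and 245 TPM in vehicle and to 477, 360 and 251 TPM in STZ samples. None of the 10 was called, and 8 were higher in STZ samples at an unadjusted p under 0.05. The 6 pericyte and smooth muscle markers summed to 53.3 to 64.2 TPM in vehicle and 77.8 to 103 TPM in STZ samples, with 3 of 6 higher at an unadjusted p under 0.05 and none called. Vehicle replicate 1 stood farthest from the other samples on the first principal component and had the lowest choroid plexus and endothelial sums, so the members and the values that turned or moved most without it are also given without it. In sorted pools, fewer cells of a type and less RNA per cell cannot be told apart.

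The chaperone Bsg was by far the most abundant member, and Slc16a1 was the leading carrier. Mean levels over the 6 samples were 2298 TPM for Bsg, 74.3 TPM for Slc16a1 and 72.8 TPM for Emb. They were 14.3 TPM for Slc16a6, 11 TPM for Slc16a9 and 5.21 TPM for Slc16a3. The lowest means were 0.574 TPM for Slc16a7 and 0.265 TPM for Hcar1. In this order 3 neighbouring pairs had ranges that overlapped over the samples: Slc16a1 and Emb, Slc16a6 and Slc16a9, and Slc16a7 and Hcar1. The other steps held in all 6 samples. FPKM, the authors' other length-scaled unit, gave the same order. Bsg ranked between 31 and 61 among all genes by TPM in the 6 samples, whereas Slc16a1 ranked between 2250 and 2885.

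**Figure D1:**
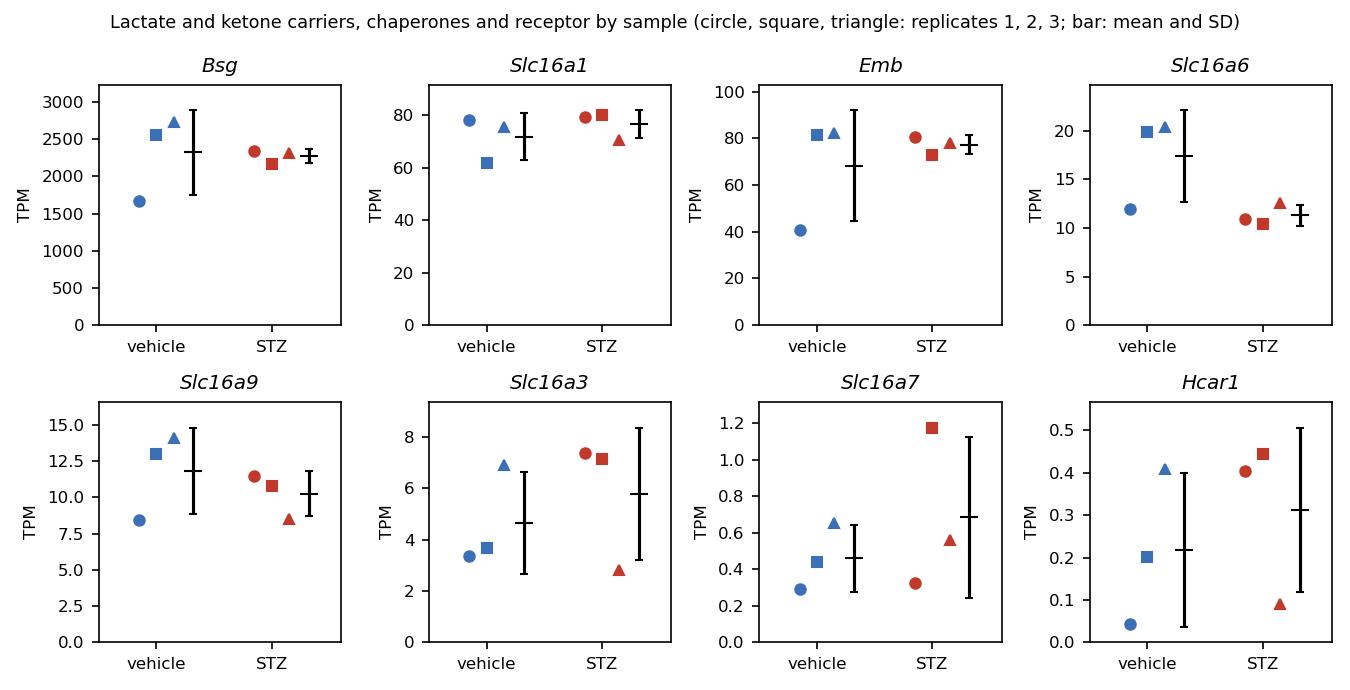
Level of each of the 8 members in TPM (vertical axis, linear, from 0, with its own scale per gene) in the 3 vehicle and 3 STZ samples. Points are samples and bars give the mean and SD of each group; the 2 groups overlap for every member, and vehicle replicate 1 is the lowest sample for Bsg, Emb, Slc16a7, Slc16a9 and Hcar1.

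No member was called different between STZ and vehicle samples, where called means an adjusted p under 0.05 in edgeR's quasi-likelihood test together with a fold change over 1.5. Over all genes tested, 0.0224% were called, so at this threshold few genes of any kind passed. By DESeq2 0 of 8 members were called, against 1.05% of all genes, but Hcar1 was given no adjusted p there and could not be called. At an unadjusted p under 0.05 in edgeR there was 1 member, Slc16a6, against 11.3% of all genes. Without vehicle replicate 1 there were 3 members, Slc16a6, Slc16a9 and Bsg, all lower in STZ samples, beside 2312 of the 22337 genes, and without vehicle replicate 3 there were 0 members, beside 2713 genes; none was called in either case. The groups overlapped for all 8 members, whereas they did not overlap for 18.5% of all genes. Fold changes were positive for 5 members and negative for 3, with a median log2 fold change of 0.06, beside 0.01 over all genes tested, of which 51.9% were positive.

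**Figure D2:**
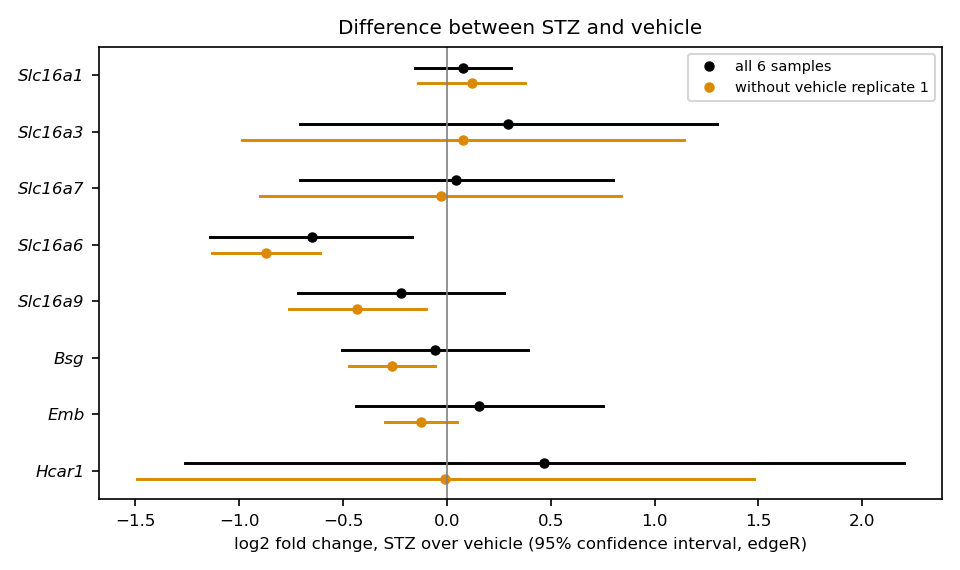
Log2 fold change of STZ over vehicle samples for each member (horizontal axis), with the 95% confidence interval of edgeR's fit as a line, for all 6 samples (black) and without vehicle replicate 1 (orange). With all samples the interval of Slc16a6 lies below 0, at -1.14 to -0.17, and those of the other members cross 0, with Hcar1 the widest; without vehicle replicate 1 those of Slc16a9 and Bsg also lie below 0.

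Slc16a1, which encodes the carrier for lactate and ketone bodies found on astrocytes, oligodendrocytes and brain endothelium, was the steadiest of the members, with the highest sample at 1.30 times the lowest. It measured 78.4, 61.8 and 75.6 TPM in vehicle replicates 1 to 3 and 79.3, 80.1 and 70.6 TPM in STZ replicates 1 to 3. Vehicle replicate 2 was the lowest sample, and the remaining vehicle samples lay within the range of the STZ samples. The fold change of STZ over vehicle was 1.06, with a 95% confidence interval of 0.900 to 1.24 (log2 0.08, SE 0.0994; adjusted p = 0.799, edgeR's quasi-likelihood test with Benjamini-Hochberg adjustment). A change larger than 1.24-fold upward or below 0.900-fold was therefore outside the interval. However, the endothelial marker sum was higher in every STZ than in every vehicle sample. The 7 oligodendrocyte markers summed to 2031, 840 and 773 TPM in vehicle and to 2548, 998 and 1046 TPM in STZ replicates 1 to 3. The part of other cell types in the Slc16a1 level was not tested. Slc16a1 (NCBI gene 20501) lies at chr3:104638664-104658462 on the plus strand of GRCm38.

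Slc16a3, the low-affinity carrier typical of cells that export lactate from glycolysis, was expressed at a small part of the Slc16a1 level and split the samples across the groups. It measured 3.34, 3.65 and 6.91 TPM in vehicle replicates 1 to 3 and 7.38, 7.15 and 2.81 TPM in STZ replicates 1 to 3, from 191 to 501 reads per sample. Vehicle replicate 3 and STZ replicates 1 and 2 were high, and the other samples were low, so both groups held high and low samples. The fold change was 1.23, with an interval of 0.612 to 2.46 (log2 0.30; adjusted p = 0.831, edgeR), and without vehicle replicate 1 the log2 fold change was 0.08. Slc16a3 (NCBI gene 80879, chr11:120948484-120959000, plus strand) overlaps Csnk1d on the opposite strand by 1292 bases. No source used here says whether reads were counted by strand, and Csnk1d had 5982 to 7290 reads, so some reads could belong to either gene. Among the markers, Ptprc, which encodes the leukocyte antigen CD45, was also highest in the same samples, at 17.1 TPM in vehicle replicate 3 and 14.2 and 21.8 TPM in STZ replicates 1 and 2, against 8.30 to 9.78 TPM in the others. Ptprc was singled out after its values were seen, and it was not the only such marker. The endothelial marker Cldn5 measured 74.9 TPM in vehicle replicate 3 and 142 and 106 TPM in STZ replicates 1 and 2, against 22.5 to 61.7 TPM in the others. Pecam1, Kdr, Nostrin and Esam were also highest in these samples. So were Itgam of the microglia and macrophage list, by a small margin, and Kcnj8 and Cspg4 of the pericyte and smooth muscle list. The endothelial sum was not, at 251 TPM in STZ replicate 3 and 245 TPM in vehicle replicate 3. The 8 microglia and macrophage markers as a list did not follow Ptprc, with sums of 417, 266 and 291 TPM in vehicle and 295, 390 and 255 TPM in STZ samples.

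Slc16a7, the high-affinity carrier associated with neurons, was the least abundant of the 5 carriers. It measured 0.290, 0.440 and 0.653 TPM in vehicle replicates 1 to 3 and 0.323, 1.18 and 0.559 TPM in STZ replicates 1 to 3, from 65 to 124 reads. STZ replicate 2 was the highest in TPM but not in reads, where vehicle replicate 3 was. The number of reads per unit of FPKM varied 3.0-fold between samples for Slc16a7, against 1.11-fold to 1.21-fold for the other members, so its length-scaled levels depend on how transcripts were assigned in each sample. On counts the fold change was 1.03, with an interval of 0.613 to 1.74 (log2 0.05; adjusted p = 0.970, edgeR), and the log2 value turned to -0.03 without vehicle replicate 1. The 6 neuron markers summed to 56.7 to 107 TPM in vehicle and 83.3 to 113 TPM in STZ samples. Slc16a7 (NCBI gene 20503) spans chr10:125219270-125389586 on the minus strand. The TPM ratio of Slc16a1 to Slc16a7 ranged from 68.1 to 270.2 over the samples.

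Slc16a6, a carrier linked to export of the ketone body β-hydroxybutyrate, was the member with the clearest difference. It measured 11.9, 19.9 and 20.3 TPM in vehicle replicates 1 to 3 and 10.9, 10.5 and 12.5 TPM in STZ replicates 1 to 3. Vehicle replicates 2 and 3 lay above all STZ samples, but vehicle replicate 1 lay within the STZ range. Its level in STZ was 0.637 of that in vehicle samples, with an interval of 0.455 to 0.891 (log2 -0.65, SE 0.208, unadjusted p = 0.0151 from edgeR). It did not pass after adjustment, with an adjusted p of 0.347 by edgeR and 0.0636 by DESeq2. Without vehicle replicate 1 the log2 fold change was -0.87 and the adjusted p was 0.120 by edgeR, so the adjusted threshold was still missed, at an unadjusted p of 9.65e-05. The choroid plexus marker sum, at 28445 and 29667 TPM in the same vehicle replicates 2 and 3 and 10515 TPM in vehicle replicate 1, was also high in STZ replicate 3 (26766 TPM), where Slc16a6 was highest within its group. The part of these cells in the Slc16a6 level was not tested. Slc16a6 (NCBI gene 104681, chr11:109450855-109473598, minus strand) overlaps Arsg on the opposite strand by 266 bases. Arsg had 2807, 6119 and 5751 reads in vehicle and 4370, 2966 and 5568 reads in STZ samples, low in vehicle replicate 1 and in STZ replicate 2.

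Slc16a9, a carrier linked to carnitine transport, was low in vehicle replicate 1 and high in vehicle replicates 2 and 3, as Slc16a6 was. It measured 8.43, 13 and 14.1 TPM in vehicle replicates 1 to 3 and 11.5, 10.8 and 8.49 TPM in STZ replicates 1 to 3. The STZ samples lay inside the vehicle range, and the log2 fold change was -0.22, with an interval of -0.72 to 0.28 (adjusted p = 0.724, edgeR). Without vehicle replicate 1 it was -0.43 (adjusted p = 0.395, edgeR). Slc16a9 (NCBI gene 66859) lies at chr10:70245276-70285951 on the plus strand.

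As shares of the summed TPM of the 5 carriers, Slc16a1 made up 62.6% to 76.6% in the 6 samples, Slc16a6 9.54% to 20.1% and Slc16a9 8.23% to 13.1%. Slc16a3 made up 2.96% to 6.75% and Slc16a7 0.283% to 1.07%. The sum itself was 102, 98.7 and 118 TPM in vehicle and 109, 110 and 95 TPM in STZ samples, so the groups overlapped. The Slc16a1 share was 67.8% ± 7.63 (SD, n = 3) in vehicle and 73.3% ± 0.932 (SD, n = 3) in STZ samples, and here too the STZ values lay within the vehicle range.

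Bsg encodes basigin, the chaperone of MCT1 and MCT4 and a glycoprotein abundant on brain endothelium. It measured 1675, 2562 and 2731 TPM in vehicle replicates 1 to 3 and 2342, 2162 and 2312 TPM in STZ replicates 1 to 3. The lowest and the highest samples were both vehicle samples, and the STZ samples lay between them. The log2 fold change was -0.06, with an interval of -0.50 to 0.39 (adjusted p = 0.935, edgeR). Without vehicle replicate 1 it was -0.27 (adjusted p = 0.401, edgeR). Bsg exceeded the summed carriers 16.4-fold to 25.9-fold in the 6 samples. Bsg (NCBI gene 12215) lies at chr10:79704358-79711979 on the plus strand.

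Emb encodes embigin, a chaperone related to basigin. It measured 40.9, 81.6 and 82.4 TPM in vehicle replicates 1 to 3 and 80.8, 72.7 and 78.1 TPM in STZ replicates 1 to 3. Vehicle replicate 1 stood alone, and the other samples lay close together. The log2 fold change was 0.16, with an interval of -0.44 to 0.75 (adjusted p = 0.848, edgeR), and turned to -0.12 without vehicle replicate 1 (adjusted p = 0.615). Bsg and Emb ranked the 6 samples alike, in the order vehicle 3, vehicle 2, STZ 1, STZ 3, STZ 2 and vehicle 1. The choroid plexus marker sum had the same samples at its ends, with vehicle 3 and vehicle 2 highest and vehicle 1 lowest, and its part in the Bsg and Emb levels was not tested. The Bsg to Emb ratio was 41.0, 31.4 and 33.1 in vehicle and 29.0, 29.7 and 29.6 in STZ samples. Emb (NCBI gene 13723, chr13:117220573-117274415, plus strand) contains the pseudogene Gm35144, which had 41 to 107 reads.

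Hcar1, the lactate receptor, was barely detected. Its counts were 4, 16 and 37 reads in vehicle replicates 1 to 3 and 37, 39 and 9 reads in STZ replicates 1 to 3, or 0.0439, 0.202 and 0.408 TPM and 0.403, 0.444 and 0.0910 TPM. Vehicle replicate 3 and STZ replicates 1 and 2 were high, as for Slc16a3. The fold change was 1.38, with an interval of 0.416 to 4.59 (log2 0.47; adjusted p = 0.844, edgeR), the widest of the members, and the log2 value was -0.0069 without vehicle replicate 1. Hcar1 (NCBI gene 243270) lies at chr5:123876739-123880003 on the minus strand.

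**Figure D3:**
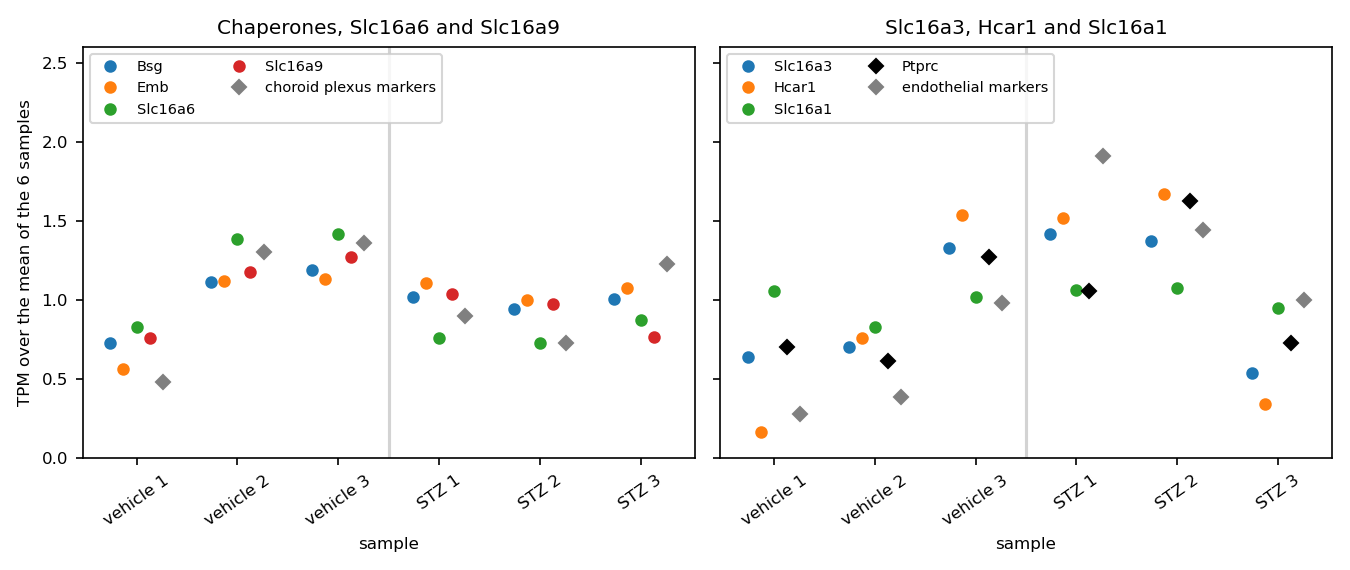
TPM of members in each sample divided by the mean of the 6 samples (vertical axis), with the summed choroid plexus markers beside Bsg, Emb, Slc16a6 and Slc16a9 (left), and Ptprc and the summed endothelial markers beside Slc16a3, Hcar1 and Slc16a1 (right). On the left all 5 quantities are below 1 in vehicle replicate 1, but Slc16a6 (0.831) is lower still in STZ replicates 1 and 2 (0.760 and 0.730). On the right Slc16a3 and Hcar1 are high in vehicle replicate 3 and STZ replicates 1 and 2 while Slc16a1 stays near 1. The quantities were chosen after their values were seen.

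Pairs of members over the 6 samples are given as a description, since all points share libraries. Log2 CPM correlated at r = 0.93 for Bsg and Emb, 0.92 for Slc16a3 and Hcar1, and 0.82 for Bsg and Slc16a9. Slc16a1 and Slc16a6 stood at r = -0.55. Among 16251 tested genes with a mean of at least 1 CPM, the genes most like each member over the 6 samples were as follows. They were 1500026H17Rik (r = 0.992) and Zfyve28 (0.990) for Slc16a1, 9830107B12Rik (0.996) and Blm (0.995) for Slc16a3, and Gm5830 (0.998) and Eri1 (0.984) for Slc16a7. They were Coasy (0.992) and Rp2 (0.990) for Slc16a6, Nhs and Rpgrip1l (both 0.982) for Slc16a9, Ddx20 (0.993) and Rflna (0.990) for Bsg, and Atpif1 and Trappc6a (both 0.995) for Emb. The number of genes with r over 0.95 was 212 for Emb, 96 for Bsg and 12 to 53 for the 5 carriers, and no test was made of these values. Hcar1 was below 1 CPM and was not searched.

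Of the remaining carriers of the same families, 11 were listed and 9 tested; Slc16a5 had a sample without reads, and Slc5a12 had no reads in any sample. None was called, and 1 of 9 had an unadjusted p under 0.05, a share near the 11.3% of all genes. This was Slc16a11, a monocarboxylate carrier of liver and other tissues, at 3.91, 8.58 and 8.62 TPM in vehicle replicates 1 to 3 and 17.2, 14 and 9.43 TPM in STZ replicates 1 to 3. All STZ samples lay above all vehicle samples, as for no other of the 9, beside 18.5% of all genes without overlap (log2 fold change 0.94, SE 0.350; adjusted p = 0.398 by edgeR and 0.0882 by DESeq2). Without vehicle replicate 1 the log2 fold change was 0.63 (adjusted p = 0.454, edgeR). Of the basigin family and related receptors, 0 of 3 had an unadjusted p under 0.05. Nptn, another member of the basigin family, was second to Bsg in this group of chaperones at 247, 208 and 214 TPM in vehicle and 190, 210 and 213 TPM in STZ samples (log2 fold change -0.12, adjusted p = 0.605, edgeR).

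The enzymes that make and use lactate and pyruvate held some of the most abundant genes of the lists, and none passed the adjusted threshold. Of 18 listed, 17 were tested, 0 were called and 2 were lower in STZ samples at an unadjusted p under 0.05, beside 11.3% of all genes. The groups did not overlap for 3 of 17 (Pdha1, Dlat and Pdk4), beside 18.5% of all genes, so both shares were near those of all genes. The median log2 fold change was -0.11, with 14 of 17 negative, beside a median of 0.01 and 51.9% positive over all genes. Pdha1, a subunit of the pyruvate dehydrogenase that commits pyruvate to the citric acid cycle, measured 177, 170 and 158 TPM in vehicle and 136, 131 and 151 TPM in STZ samples (log2 fold change -0.28, adjusted p = 0.311, edgeR). Dlat, the acetyltransferase of the same complex, measured 57.7, 55.7 and 55.6 TPM in vehicle and 44.8, 47.3 and 51.9 TPM in STZ samples (-0.24, adjusted p = 0.356, edgeR). For both, all STZ samples lay below all vehicle samples.

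Lactate dehydrogenase stands on either side of the carriers, with the A subunit favouring lactate formation and the B subunit favouring its use. Ldhb was the most abundant gene of the list, at 2438, 2820 and 2555 TPM in vehicle and 2342, 2308 and 2496 TPM in STZ samples (log2 fold change -0.14, adjusted p = 0.625, edgeR). Ldha measured 586, 767 and 754 TPM in vehicle and 679, 685 and 814 TPM in STZ samples (log2 fold change 0.03, adjusted p = 0.954, edgeR), which turned to -0.10 without vehicle replicate 1. The Ldha to Ldhb ratio was 0.240, 0.272 and 0.295 in vehicle and 0.290, 0.297 and 0.326 in STZ samples. The groups overlapped, and the difference of 0.18 in mean log2 ratio had p = 0.2 in a two-sided exact permutation test, which cannot go below 0.1 with 3 against 3 samples.

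Ketone bodies use the same carriers, and of the lists their enzymes had the largest share of members at an unadjusted p under 0.05, although none was called by edgeR. Of 7 tested, 3 were higher and 3 lower in STZ samples at an unadjusted p under 0.05, and the groups did not overlap for these 6, beside 11.3% and 18.5% of all genes. Bdh2, a cytosolic dehydrogenase, measured 26.5, 32.1 and 35.1 TPM in vehicle and 48.7, 46.0 and 40.8 TPM in STZ samples (log2 fold change 0.51, adjusted p = 0.302, edgeR). All STZ samples lay above all vehicle samples.

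Oxct1, the transferase that lets tissues burn acetoacetate and the most abundant of the list, measured 202, 217 and 206 TPM in vehicle and 160, 172 and 185 TPM in STZ samples (log2 fold change -0.28, adjusted p = 0.338, edgeR). Bdh1, the mitochondrial β-hydroxybutyrate dehydrogenase, measured 67.3, 62.8 and 59.6 TPM in vehicle and 57.7, 51.9 and 56.9 TPM in STZ samples (-0.20, adjusted p = 0.387, edgeR). Aacs, which turns acetoacetate toward lipid synthesis, measured 63.3, 56.1 and 52.7 TPM in vehicle and 51.9, 52.1 and 42.9 TPM in STZ samples (-0.24, adjusted p = 0.402, edgeR). All 3 lay lower in every STZ sample than in any vehicle sample, and without vehicle replicate 1 the unadjusted p was 0.0547 for Bdh1 and 0.0827 for Aacs (edgeR). Of the 8 astrocyte markers, 2 were also lower in every STZ sample at an unadjusted p under 0.05, with none called. They were Aldh1l1, at 369, 320 and 318 TPM in vehicle and 308, 298 and 262 TPM in STZ samples, and Aqp4, at 561, 442 and 469 TPM in vehicle and 321, 379 and 361 TPM in STZ samples. The remaining astrocyte markers overlapped between the groups, as did the marker sum, and fold changes were positive for 2 of the 8. Aldoc, the most abundant, measured 5620, 4723 and 4648 TPM in vehicle and 5682, 5876 and 5272 TPM in STZ samples. The part of astrocyte content in the lower enzymes, Pdha1 and Dlat included, was not tested. Bdh2 and Slc16a11 ranked the samples in the order STZ 1, STZ 2, STZ 3, vehicle 3, vehicle 2 and vehicle 1, which is also the order of the endothelial and of the pericyte and smooth muscle marker sums; the part of these cells in both genes was not tested.

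**Figure D4:**
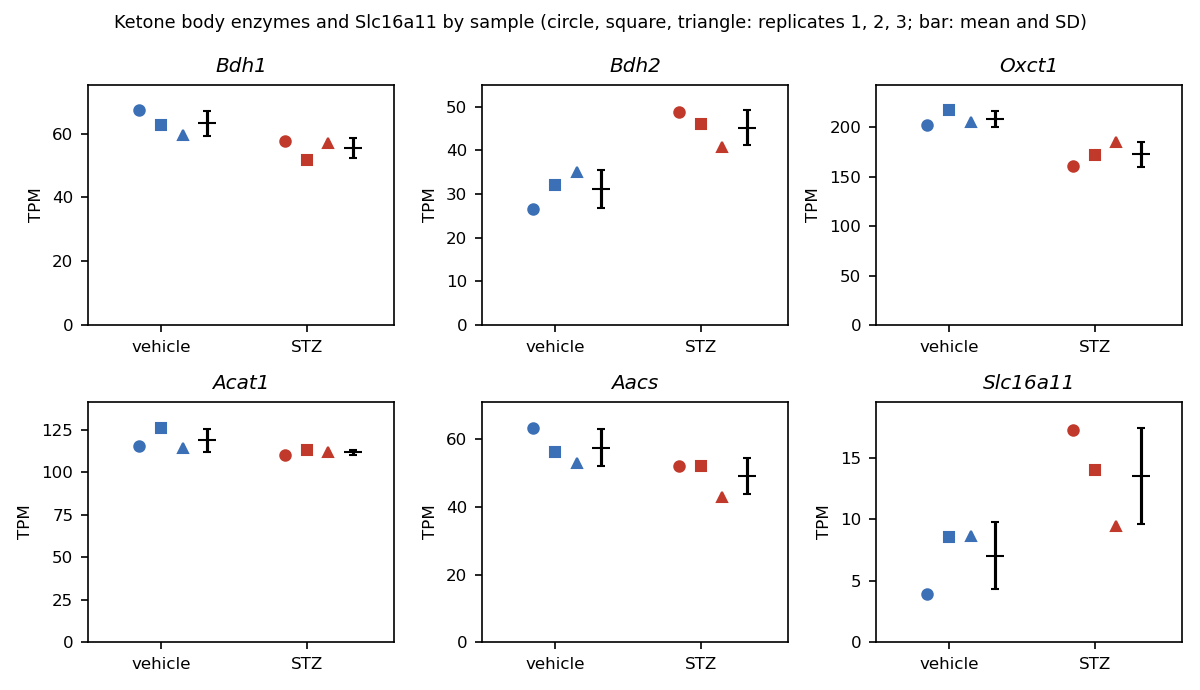
TPM (vertical axis, linear, from 0) of the ketone body enzymes Bdh1, Bdh2, Oxct1, Acat1 and Aacs and of the carrier Slc16a11 in the 3 vehicle and 3 STZ samples, with points as samples and bars as the mean and SD of each group. Bdh2 and Slc16a11 lie higher and Oxct1, Bdh1 and Aacs lower in all STZ samples, and none of them passed the adjusted threshold of edgeR.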

How the data were processed

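Sequenced RNA of sorted tdTomato-positive cells was compared between 3 vehicle and 3 STZ samples, each a pool of 3 mice; groups were taken from the sample titles. Per the submitters' notes and methods, reads were trimmed with Trimmomatic 0.38, aligned to mm10 with HISAT2 2.1.0 and quantified with StringTie 2.1.3b. The authors deposited raw read counts for each gene as whole numbers, and the FPKM and TPM values were also made by the authors. The annotation release and strand setting are not given in the sources used here.

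The members and gene lists were chosen with earlier results of these data known. Named were all members, pathway genes that were called or had an unadjusted p under 0.05, the most abundant gene of each list, and the 2 genes most like each member; some genes this rule names are not reported here.

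Counts of genes with at least 1 read in every sample entered edgeR 4.0.16 (R 4.3.3; TMM, quasi-likelihood test, group only, two-sided, Benjamini-Hochberg adjustment over 22337 genes; called when the fold change passed 1.5 and the adjusted p was under 0.05). The study's methods name DESeq2, which was run (1.42.0) as an alternative, beside DESeq2's size factors, no filter, filterByExpr, robust fitting, the replicate number as a block, limma 3.58.1 on log2(TPM + 1) and log2(TPM + 0.1), no limit on fold change, and each sample left out. The scripts were tested on simulated data. Floors of 3 counts cover counting error only, and p-values measure the spread between pools. Positions are RefSeq's on GRCm38, the assembly behind mm10; all 8 members matched by NCBI gene number. Python 3.11.15, numpy 2.4.6, pandas 2.3.3 and scipy 1.17.1 were used for tables and the permutation test.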

Additional observations from a re-analysis of the deposited data

How the results depend on the processing

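No member was called under any of the alternatives, although Hcar1 had no adjusted p by DESeq2. Over all genes tested the number called moved from 5 (2 higher and 3 lower in STZ samples: Rtp1, Olfm2, Slc13a3, Serpinh1 and Apln, named after their values were seen) to 234 with DESeq2 (146 higher, 88 lower), 10 with robust fitting, and 0 with limma on log2(TPM + 1) (2635 genes at an unadjusted p under 0.05) or log2(TPM + 0.1) (2612), and to 0 to 1 when 1 sample was left out. It was 5 to 7 with DESeq2's size factors, other filters or no limit on fold change. With the replicate number as a block 0 genes were called (1793 at an unadjusted p under 0.05), and Slc16a6 had an adjusted p of 0.600. Samples of the same number did not deviate together (correlations -0.101, -0.162 and -0.184). With 3 samples per group these values cannot settle whether the numbers pair the samples. Among pathway genes, 0 were called except 1 by DESeq2. Leaving out 1 sample gave log2 fold changes of -0.027 to 0.12 for Slc16a1, 0.08 to 0.75 for Slc16a3, -0.12 to 0.30 for Slc16a7, -0.87 to -0.52 for Slc16a6, -0.43 to -0.08 for Slc16a9, -0.27 to 0.083 for Bsg, -0.12 to 0.32 for Emb and -0.0069 to 1.31 for Hcar1, so the sign of the 5 that cross 0 rested on single samples. The log2 difference in the Ldha to Ldhb ratio was 0.10 to 0.25 (exact permutation p 0.2 to 0.4). With 1 sample left out the two-sided exact test cannot go below 0.2, so these p-values cannot decide whether the ratio differed. Hcar1 had the lowest counts, 4 to 39 reads per sample.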

Other observations

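Slc16a8, which encodes the carrier MCT3 of retinal pigment and choroid plexus epithelium, was singled out after its values were seen. It measured 12.7, 32.5 and 32.8 TPM in vehicle replicates 1 to 3 and 32.1, 20.8 and 34.2 TPM in STZ replicates 1 to 3, lowest in vehicle replicate 1 (log2 fold change 0.11, adjusted p = 0.933, edgeR). Without vehicle replicate 1 the log2 fold change turned to -0.22. Hcar2, the receptor for β-hydroxybutyrate, measured 1.79, 1.11 and 3.01 TPM in vehicle and 3.10, 2.87 and 1.65 TPM in STZ samples (log2 fold change 0.33, adjusted p = 0.793, edgeR). It was also singled out after its values were seen, and it was above Hcar1 in every sample.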
